A study of Mus musculus with 6 samples.

Results

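The Z-disc and mechanical stretch-sensing genes examined here are Actn2, Actn3, Myoz1, Myoz2, Tcap, Csrp3, Ankrd1, Ankrd2, Ldb3 and Fhl1. Every probe set annotated with exactly 1 of these symbols was taken, which gave 15 probe sets for 10 genes, of 45101 probe sets and 18194 genes on the array. RNA came from female C57BL/6 mice ovariectomized at 4 months of age, which then carried pellets holding 0.18 mg of 17β-estradiol released over 60 days (OVX + E2, 3 arrays) or placebo pellets for the same 60 days (OVX, 3 arrays). Ovariectomy was common to both groups, and ovary-intact mice are not among these arrays. Values are log2 expression values in arbitrary units, and differences are OVX + E2 minus OVX, and are negative where E2-treated samples were lower. No source used here states that the arrays came from different animals, so p-values reflect only how these 6 samples scatter, and that scatter may be technical.

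The Z-disc is the plate at which actin filaments of neighbouring sarcomeres are anchored and crosslinked by alpha-actinin. Titin, telethonin, the calsarcins and PDZ-LIM proteins meet there, and the disc also holds proteins that report stretch to the nucleus, among them the muscle LIM protein and the muscle ankyrin repeat proteins. Several of these come in isoforms tied to fibre type, with Actn3 and Myoz1 known as genes of fast fibres, and Myoz2, Csrp3 and Ankrd2 known as genes richer in slow fibres.

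According to the study's methods the RNA was from soleus muscle, whereas the labels of the samples say left ventricle. Of 14 fast-fibre markers 13 lay in the brightest 5% of all probe sets, as did 10 of 12 slow-fibre markers and 0 of 10 heart-restricted markers, whose median percentile was 53.8. The fast-fibre markers were lowest on OVX + E2 replicate 3, at a mean deviation of −0.999 from the mean of all arrays, and highest on OVX replicate 3, at 0.67, with the other arrays between −0.16 and 0.19. Those 2 arrays therefore stood apart, and the members' results that rest on them are given with and without them. Neither Actn3 nor Myoz1 is on the fast-fibre list. Both are known as genes of fast fibres, though, and the profiles of some listed genes lay close to theirs, so the list is not independent of them. Markers of fat, leukocytes, endothelium, fibroblasts and nerve did not separate the groups, with exact permutation p between 0.2 and 0.9 for their mean deviations, and the fibroblast markers had the largest median difference, −0.28, with 2 of 5 lower at an unadjusted p under 0.05 in limma. Over all probe sets 0.213% passed an unadjusted p of 0.001 in limma, none passed an adjusted p under 0.05, and 13.8% had an unadjusted p under 0.05.

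None of the 15 probe sets passed the threshold of 0.001 between OVX + E2 and OVX, against 0.197% lower and 0.0155% higher over all probe sets. Of the 15, 10 had a difference below 0 and 5 above 0, with a median of −0.07, against 52.3% below 0 and a median of −0.0049 over all probe sets. At an unadjusted p under 0.05 in limma 1 of 15 was lower and 0 were higher, against 9.43% lower and 4.35% higher over all probe sets. The values of the groups did not overlap in 1 of 15, against 21.2% of all probe sets, and it was lower, as were 11.4% of all. Neither share lies above the background. The smallest adjusted p of a member was 0.349.

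**Figure D1:**
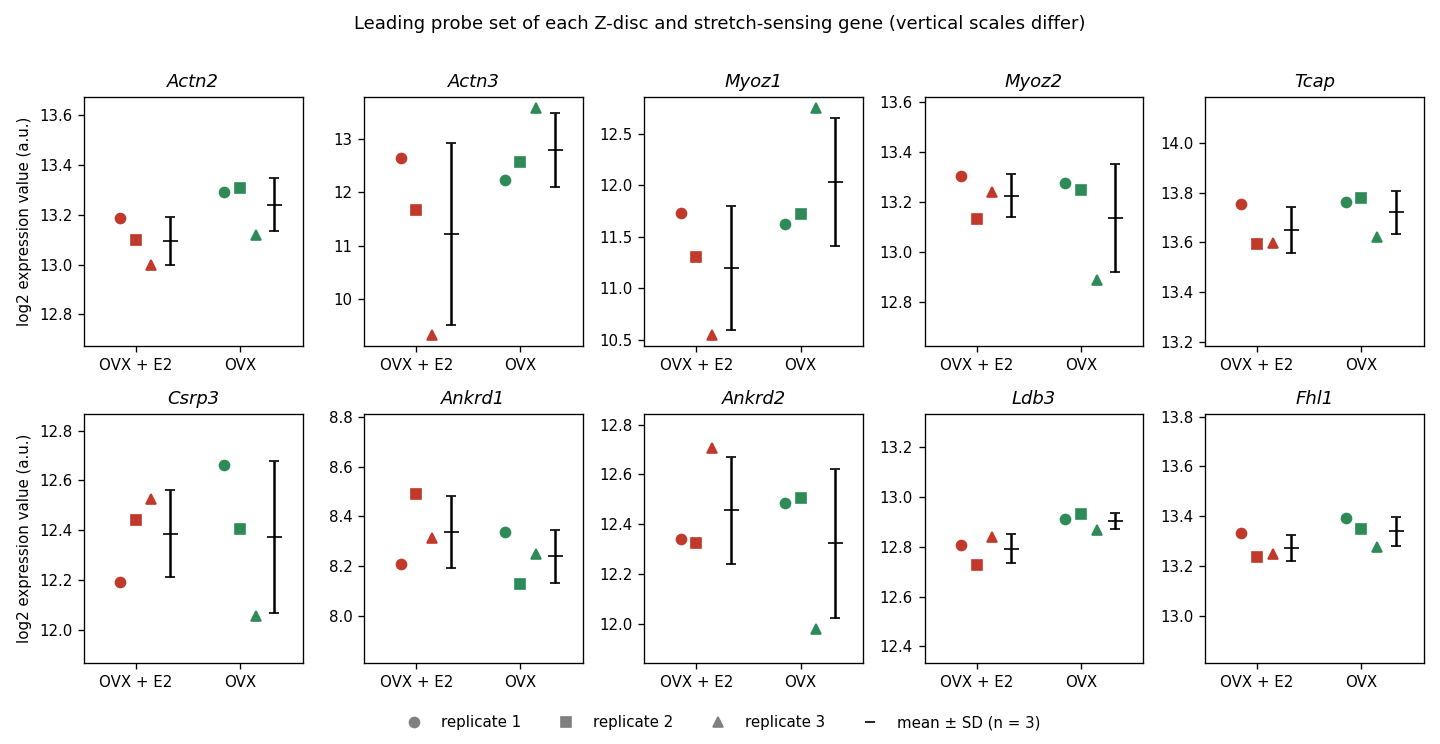
Log2 expression value (vertical axes, arbitrary units, scales differ) of the leading probe set of each gene on the 3 OVX + E2 arrays (red) and the 3 OVX arrays (green), with symbols for the replicate number and bars for the mean ± SD. Actn3 and Myoz1 are lowest on OVX + E2 replicate 3 and highest on OVX replicate 3, Ankrd2, Csrp3 and Myoz2 are lowest on OVX replicate 3, and Ldb3 alone shows no overlap between the groups.

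The actin crosslinkers differed in how much they varied between arrays. Actn3 (chr19:4861216-4877909 on GRCm38.p6), the alpha-actinin of fast fibres, measured 12.65, 11.67 and 9.33 on OVX + E2 replicates 1, 2 and 3 and 12.23, 12.57 and 13.57 on OVX replicates 1, 2 and 3. The groups overlapped, since OVX + E2 replicate 1 lay above OVX replicates 1 and 2. Actn3 averaged 11.22 ± 1.70 in OVX + E2 and 12.79 ± 0.70 in OVX (SD, n = 3 each), a difference of −1.57 with a standard error of 0.80 and a 95% interval from −3.45 to 0.30. The unadjusted p in limma was 0.0877 and the adjusted p 0.411, and the two-sided exact permutation test gave p = 0.3. Only 0.0111% of all probe sets ranged more widely over the 6 arrays than Actn3, which spanned 4.24 log2 units. In bulk muscle, fewer fibres of a type and less RNA per fibre cannot be told apart.

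Most of the Actn3 difference lay in the arrays numbered 3. They were its lowest array in OVX + E2 and its highest in OVX, so leaving out either could only make the difference less negative. OVX + E2 replicate 3 had 0.0530 times the signal of OVX replicate 3, and 0.0599% of all probe sets were lower by 2 or more log2 units between these arrays. Without both arrays the difference was −0.24 (unadjusted p = 0.446 in limma), without OVX + E2 replicate 3 alone it was −0.63, and without OVX + E2 replicate 1 it was −2.29 (unadjusted p = 0.0199 in limma). With the mean deviation of the 14 fast-fibre markers as a covariate the Actn3 difference was 0.16 (unadjusted p = 0.185 in limma). That list holds Pvalb and Mybpc2, whose profiles lay nearest to that of Actn3, so taking up most of the difference was built into this fit. Myh4, which encodes type IIB myosin heavy chain, differed by −6.12 between OVX + E2 replicate 3 and OVX replicate 3, Mybpc2, fast myosin-binding protein C, by −4.27, and Pvalb, the calcium buffer parvalbumin, by −4.12, beside −4.24 for Actn3. All 14 fast-fibre markers were lower between these arrays, 5 of them by 1 or more log2 units.

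Actn2 (chr13:12269426-12340732), the alpha-actinin of all striated muscle fibres, was far steadier. It measured 13.19, 13.10 and 13.00 on the OVX + E2 arrays and 13.29, 13.31 and 13.12 on the OVX arrays. OVX + E2 replicate 1 lay above OVX replicate 3, and otherwise the OVX arrays were the higher ones. Actn2 differed by −0.15 with a standard error of 0.07 and an interval from −0.31 to 0.02 (unadjusted p = 0.0748 in limma, exact permutation p = 0.2). Probe sets within 0.5 log2 units of its brightness had a median difference of −0.11. Without both arrays numbered 3 the difference of Actn2 was −0.16 with an unadjusted p of 0.0253 in limma, the arrays then being 2 against 2, and after median centring of all 6 arrays it was −0.16 with an unadjusted p of 0.0466 in limma.

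The calsarcins bind alpha-actinin and the phosphatase calcineurin at the Z-disc. Myoz1 (chr14:20649102-20656540), the calsarcin of fast fibres, measured 11.74, 11.31 and 10.55 on the OVX + E2 arrays and 11.63, 11.72 and 12.75 on the OVX arrays with its brighter probe set. The dimmer one measured 7.42, 7.19 and 6.87 in OVX + E2 and 7.32, 7.29 and 8.49 in OVX. Both were lowest on OVX + E2 replicate 3 and highest on OVX replicate 3, as was Actn3, 3 of the 15 member probe sets. That pattern was shared by 10.3% of all probe sets and 18.9% of those with a mean of 12 or more, such as Actn3. The differences were −0.83 with a standard error of 0.38 (interval from −1.72 to 0.05, unadjusted p = 0.0611 in limma) and −0.54 with a standard error of 0.32 (unadjusted p = 0.136 in limma). The exact permutation test gave p = 0.3 and p = 0.4. The brighter probe set passed 0.05 without OVX + E2 replicate 1, at −1.10 (unadjusted p = 0.0305 in limma), and without OVX replicate 1, at −1.04 (unadjusted p = 0.0487 in limma). With all 6 arrays it passed under an intensity trend of the variance (unadjusted p = 0.0421 in limma). Without both arrays numbered 3 the differences were −0.15 and 0.00. Since those arrays were the lowest and the highest of both probe sets, leaving them out could only make the differences less negative. With the fast-fibre covariate, whose list holds Gpd1, near in profile to the brighter probe set, the differences were −0.06 and −0.02.

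Myoz2 (chr3:123006206-123035003), the calsarcin of slow fibres and heart, went the other way on the arrays that stood apart. It measured 13.31, 13.13 and 13.24 on the OVX + E2 arrays and 13.28, 13.25 and 12.89 on the OVX arrays. OVX replicate 3 was the lowest array, and the others lay within 0.17 of each other. The difference was 0.09 with a standard error of 0.11 and an interval from −0.16 to 0.34 (unadjusted p = 0.433 in limma), and −0.04 without both arrays numbered 3. Myoz3, the third calsarcin, which is no member of the set, measured 8.60, 8.50 and 8.30 in OVX + E2 and 8.94, 8.86 and 9.76 in OVX. Its groups did not overlap. It differed by −0.72 (standard error 0.23, unadjusted p = 0.0160 in limma, adjusted p = 0.316), by −0.59 after cyclic loess and by −0.35 without both arrays numbered 3.

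**Figure D2:**
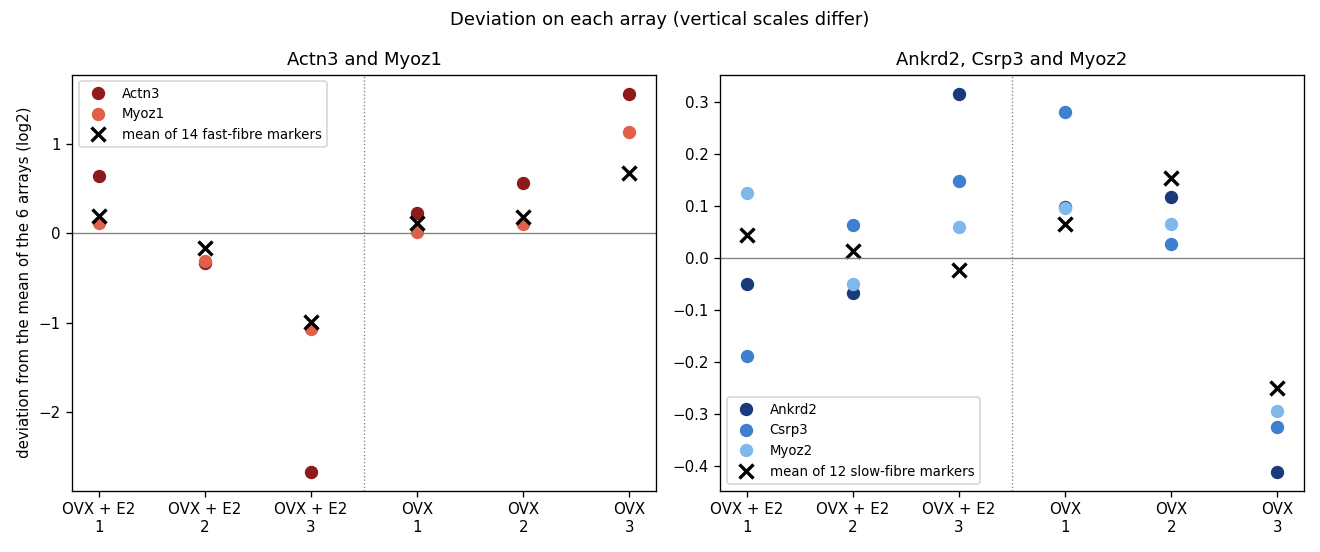
Deviation of each array from the mean of the 6 arrays (vertical axes, log2, scales differ) for Actn3 and Myoz1 with the mean of 14 fast-fibre markers (left) and for Ankrd2, Csrp3 and Myoz2 with the mean of 12 slow-fibre markers (right); the OVX + E2 arrays stand left of the dotted line and the OVX arrays right of it. Actn3 and Myoz1 follow the order of the fast-fibre markers at both ends, and OVX replicate 3 is lowest for Ankrd2, Csrp3 and Myoz2 as for the slow-fibre markers.

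The profiles nearest to those of Actn3 and Myoz1 were sought among 18193 other genes, by the root mean square distance between deviations over the 6 arrays. Pvalb lay nearest to Actn3, at a distance of 0.06 log2 units. It measured 12.87, 12.03 and 9.61 in OVX + E2 and 12.52, 12.79 and 13.73 in OVX. Mybpc2 followed at 0.23 and Mylk4, a myosin light chain kinase, at 0.51. Nearest to Myoz1 were Gpd1, the cytosolic glycerol-3-phosphate dehydrogenase, at 0.13, Gpt2, an alanine aminotransferase, at 0.14, and Ddit4l, an inhibitor of mTOR signalling, at 0.15. Gpd1 measured 8.74, 8.41 and 7.78 in OVX + E2 and 8.73, 8.79 and 10.13 in OVX. Myh4, Mybpc2, Pvalb and Gpd1 belong to the fast-fibre list.

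The stretch sensors Ankrd2 and Csrp3 had their lowest value on the same array as Myoz2. Ankrd2 (chr19:42035917-42045111), a muscle ankyrin repeat protein that binds titin and is induced by stretch, measured 12.34, 12.32 and 12.70 on the OVX + E2 arrays and 12.49, 12.51 and 11.98 on the OVX arrays. It was highest on OVX + E2 replicate 3 and lowest on OVX replicate 3. This held for 1 of the 15 member probe sets, 6.1% of all probe sets and 1.43% of those with a mean of 12 or more. The difference was 0.13 with a standard error of 0.16 and an interval from −0.25 to 0.52 (unadjusted p = 0.443 in limma, exact permutation p = 0.6). Without both arrays numbered 3 the sign turned, to −0.16 (unadjusted p = 0.0131 in limma, 2 against 2), and both remaining OVX + E2 arrays then lay below both OVX arrays. The arrays left out were its highest and its lowest, so leaving them out could only lower the difference. With the fast-fibre covariate it was −0.17 (unadjusted p = 0.222 in limma).

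Csrp3 (chr7:48830398-48848051), the muscle LIM protein, binds telethonin and alpha-actinin and can enter the nucleus. It measured 12.19, 12.44 and 12.53 on the OVX + E2 arrays and 12.66, 12.41 and 12.05 on the OVX arrays. OVX replicate 1 was the highest array and OVX replicate 3 the lowest, so the OVX group enclosed the OVX + E2 group. The difference was 0.01 with a standard error of 0.16 and an interval from −0.35 to 0.38 (unadjusted p = 0.936 in limma), and −0.22 without both arrays numbered 3 (unadjusted p = 0.101 in limma). Between OVX + E2 replicate 3 and OVX replicate 3, Ankrd2 differed by 0.73, Csrp3 by 0.47 and Myoz2 by 0.35. Of the 350 probe sets with a mean of 12 or more, 4.86% were higher by 0.3 or more between these arrays. The slow-fibre markers Myh7, the slow myosin heavy chain, Tnnt1, slow troponin T, and Casq2, a calsequestrin, differed by 0.27, 0.28 and 0.76 there. Of the 12 slow-fibre markers, 2 were higher by 0.3 or more between these arrays and 1, Pln, an inhibitor of the calcium pump, was lower, by −0.56. The mean deviation of all 12 slow-fibre markers was −0.25 on OVX replicate 3, whereas the 5 remaining arrays ranged from −0.02 to 0.15, and its part in these values was not tested.

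Sequence before the transcription start is shown for Ankrd2, Csrp3 and Myoz2, because they shared their lowest array, and for Ankrd1, the relative of Ankrd2 whose highest and lowest arrays were others. The RefSeq windows of GRCm38.p6 give 250 bases before each start for 7 of the 10 genes, namely Actn2, Myoz2, Csrp3, Ankrd1, Ankrd2, Ldb3 and Fhl1. Capitals mark E-boxes (CANNTG, the same on both strands), which myogenic factors bind, and MCAT elements (CATTCC on either strand), which TEAD factors bind. Bases inside the annotated gene were left out, so Ankrd2 shows 140 bases (chr19:42035777-42035916, plus strand), Csrp3 250 (chr7:48848052-48848301, minus strand), Myoz2 234 (chr3:123035004-123035237, minus strand) and Ankrd1 250 (chr19:36119845-36120094, minus strand), each written along the strand of its gene.
Ankrd2: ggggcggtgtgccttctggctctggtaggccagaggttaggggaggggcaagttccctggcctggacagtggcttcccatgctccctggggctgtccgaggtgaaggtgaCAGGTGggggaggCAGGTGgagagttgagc
Csrp3: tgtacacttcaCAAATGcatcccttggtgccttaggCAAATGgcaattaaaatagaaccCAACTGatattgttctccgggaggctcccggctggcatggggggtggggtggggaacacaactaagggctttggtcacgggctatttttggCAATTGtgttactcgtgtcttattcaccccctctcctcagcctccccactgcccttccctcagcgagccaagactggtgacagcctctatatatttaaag
Myoz2: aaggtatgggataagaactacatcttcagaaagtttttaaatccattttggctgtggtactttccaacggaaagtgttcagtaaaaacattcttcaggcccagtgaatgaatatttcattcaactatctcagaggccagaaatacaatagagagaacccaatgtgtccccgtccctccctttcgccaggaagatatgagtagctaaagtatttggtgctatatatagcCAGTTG
Ankrd1: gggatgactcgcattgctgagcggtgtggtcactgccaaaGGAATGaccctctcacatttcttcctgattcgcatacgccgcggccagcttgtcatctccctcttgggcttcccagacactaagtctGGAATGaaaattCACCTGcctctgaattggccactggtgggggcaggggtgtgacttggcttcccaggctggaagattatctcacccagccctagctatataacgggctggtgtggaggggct

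E-boxes stood in the windows of 6 of 7 members. Ankrd2 has 3, of which 2 lie in the bases shown, this Csrp3 window has 4, and Myoz2 has 2, of which 1 lies in the bases shown. The 7 members have 10 windows, since some genes have more than 1. An E-box stood in 8 of the 10 windows, against 66.2% of all windows of that length. MCAT elements stood in 1 of 7 members, Ankrd1, which has 2, and in 1 of the 10 windows, against 12.6% of all windows. The full palindromic estrogen response element was found in 0 of 7 members, against 0.0639% of all windows. Its half-site (GGTCA on either strand) was found in Csrp3, Actn2 and Ankrd1, in 4 of the 10 windows, against 35.2% of all windows. In Ankrd1 1 half-site overlapped an MCAT element. A MEF2 motif was found in Myoz2 alone, in 1 of the 10 windows, against 2.92% of all windows. A CArG box, the motif of SRF, was found in Ldb3 and Fhl1, in 3 of the 10 windows, against 1.47% of all windows. The Ldb3 windows overlap and hold the same CArG box. These matches are a description of the letters and were not tested for use by any factor.

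Ankrd1 (chr19:36111965-36119844), the muscle ankyrin repeat protein that is abundant in heart, was the dimmest gene of the set. Its probe sets lay at percentiles 84.7 and 83.7 of all probe sets, while the leading probe sets of the other 9 genes lay at 98.9 or above. The brighter one measured 8.21, 8.49 and 8.32 in OVX + E2 and 8.34, 8.13 and 8.25 in OVX, and the dimmer one 8.14, 8.51 and 8.15 in OVX + E2 and 8.33, 7.95 and 8.18 in OVX. In both, OVX + E2 replicate 2 was the highest array and OVX replicate 2 the lowest, and the arrays numbered 3 did not stand out. The differences were 0.10 (standard error 0.08, interval from −0.10 to 0.30) and 0.12 (standard error 0.13), with unadjusted p of 0.276 and 0.386 in limma. After cyclic loess the brighter probe set differed by 0.19 (unadjusted p = 0.0377 in limma) and after quantile normalization by 0.21 (unadjusted p = 0.0281 in limma).

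The leading probe sets of Tcap, Ldb3 and Fhl1 varied least. Tcap (chr11:98383811-98384953), telethonin, which ties the ends of titin together at the Z-disc, measured 13.76, 13.60 and 13.60 in OVX + E2 and 13.76, 13.78 and 13.62 in OVX. Its difference was −0.07 with an interval from −0.22 to 0.08 (unadjusted p = 0.305 in limma), against a median of −0.08 for probe sets of like brightness. The highest values of the arrays were 14.04 to 14.19.

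Ldb3 (chr14:34526699-34590314), a PDZ-LIM protein that binds alpha-actinin, gave the only probe set with an unadjusted p under 0.05. Its brightest probe set measured 12.81, 12.73 and 12.84 in OVX + E2 and 12.91, 12.93 and 12.87 in OVX, without overlap. The difference was −0.11 with a standard error of 0.04 and an interval from −0.21 to −0.01 (unadjusted p = 0.0378 and adjusted p = 0.349 in limma), and the exact permutation test gave its smallest p, 0.1. Probe sets of like brightness had a median difference of −0.12, and Ldb3 lay 0.01 above it. The p rose above 0.05 when OVX + E2 replicate 1 or 2 or OVX replicate 1 or 2 was left out, with differences between −0.12 and −0.08. It was also above 0.05 with all 6 arrays under an intensity trend of the variance (unadjusted p = 0.0857 in limma) and among probe sets brighter than the median (unadjusted p = 0.0574 in limma). After cyclic loess the sign turned, to 0.02, and after quantile normalization, to 0.02. The second probe set measured 11.91, 11.87 and 11.97 in OVX + E2 and 11.99, 12.07 and 11.76 in OVX, and the third measured 10.06, 10.32 and 10.23 in OVX + E2 and 10.27, 10.20 and 10.31 in OVX. Both overlapped between the groups, with differences of −0.02 and −0.06.

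Fhl1 (chrX:56731209-56793346), a LIM-domain protein that binds titin and takes part in stretch signalling, gave discordant probe sets. The bright one measured 13.33, 13.24 and 13.25 in OVX + E2 and 13.39, 13.35 and 13.28 in OVX, a difference of −0.07 with an interval from −0.18 to 0.05 (unadjusted p = 0.205 in limma). It spanned 0.16 log2 units, the least of the 15 probe sets. The dim one measured 9.01, 9.71 and 7.94 in OVX + E2 and 9.35, 9.46 and 9.34 in OVX, so OVX + E2 replicate 3 was low and the OVX arrays lay close together. Its difference was −0.50 with a standard error of 0.39 (unadjusted p = 0.240 in limma), −0.05 without both arrays numbered 3, and −0.91 without OVX + E2 replicate 2 (unadjusted p = 0.0189 in limma). Where in the gene each of them lies was not analysed here.

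**Figure D3:**
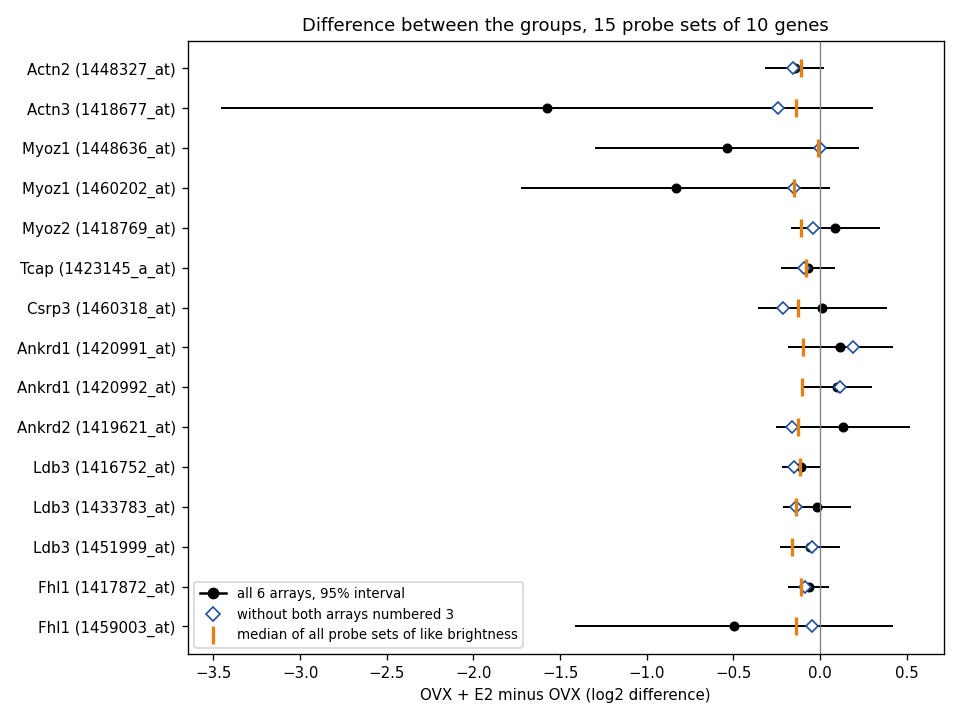
Difference between OVX + E2 and OVX (horizontal axis, log2) for the 15 probe sets of the 10 genes, as black points with 95% intervals over all 6 arrays, blue diamonds for the fit without both arrays numbered 3 and orange bars for the median of all probe sets within 0.5 log2 units of brightness. The intervals of all but the brightest Ldb3 probe set include 0, and the diamonds lie at −0.24 for Actn3, −0.15 for the brighter Myoz1 probe set and −0.05 for the dim Fhl1 probe set.

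Seen between the arrays numbered 3 alone, members differed in both directions. Actn3, both Myoz1 probe sets and the dim Fhl1 probe set, 4 of 15, were lower by 1 or more log2 units on OVX + E2 replicate 3 than on OVX replicate 3, against 0.659% of all probe sets, and the same 4 were those lower by 0.3 or more, against 9.65%. Ankrd2, Csrp3 and Myoz2, 3 of 15, were higher by 0.3 or more, against 1.42%. The limits of 1 and 0.3 were set with these values known, and each side is 1 array, so this comparison has no replicate check. Among probe sets with a mean of 12 or more, 2.57% were lower by 1 or more, Actn3 being the member among them. In that range 4.86% were higher by 0.3 or more, with Ankrd2, Csrp3 and Myoz2 among them. By the same limits 5 of 14 fast-fibre markers and 3 of 28 other Z-disc genes were lower, and 2 of 12 slow-fibre markers and 0 of the 28 were higher. The pattern was thus not particular to the members.

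Without both arrays numbered 3, 12 of 15 member probe sets lay below 0. Then 4 of 15 were lower at an unadjusted p under 0.05 in limma, against 7.54% of all probe sets of any brightness. They were Actn2, Ankrd2 and a pair of Ldb3 probe sets, and 0 were higher, against 2.1%. All 4 lay in the brightest 5% of all probe sets. With every array kept, 40.1% of that range were lower at this p, against 9.43% of all probe sets. The share in that range was not counted for this fit, so 7.54% is not a matched background. The arrays left out were the highest and the lowest of Ankrd2, so its difference could only fall. After cyclic loess 0 of the 15 member probe sets were lower, against 4.02%, and 1, Ankrd1, was higher, against 3.57%. After quantile normalization 0 were lower, against 3.33%, and again only Ankrd1 was higher, against 4.46%. With the fast-fibre covariate 1, the brightest Ldb3 probe set, was lower, against 3.99%, and 0 were higher, against 1.67%.

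Against genes of the same brightness, Ankrd2, Myoz2 and Csrp3 stood on the less usual side. Of the 350 probe sets with a mean of 12 or more, 91.1% had a difference below 0, with a median of −0.12, 36% were lower at an unadjusted p under 0.05 in limma and 38% were lower without overlap, against 1 of the 8 members there, Ldb3, on both counts. Of the 8 member probe sets in that range, Actn2, Actn3, Tcap, Ldb3 and Fhl1 lay below 0, and Ankrd2, Myoz2 and Csrp3 were 3 of the 31 that lay above. None of these 3 was above 0 without both arrays numbered 3. OVX replicate 3 was the lowest array of each, so leaving it out could only lower the difference. After cyclic loess, which is meant to remove the dependence of the difference on brightness, 5 of the 15 member probe sets lay below 0, and their median difference was 0.07.

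Differences of the other Z-disc genes were mostly below 0, as were those of most bright probe sets. Of 28 measured other Z-disc proteins, 25 lay below 0 with a median of −0.10, 6 were lower at an unadjusted p under 0.05 in limma and 0 higher, none at 0.001. After cyclic loess the median of the list turned to 0.03. Of these genes 22 were in the brightest 5% of all probe sets, where 93.4% lay below 0 and 40.1% were lower at an unadjusted p under 0.05. Mypn, the titin- and alpha-actinin-binding myopalladin, differed by −0.33, Palld, palladin, by −0.26, Capza1 by −0.18 and Capzb by −0.26, the last a pair of capping proteins of actin filament ends. Capza2, another of these, differed by −0.29, and Myoz3, given above, is the sixth of the genes that passed. Their unadjusted p in limma was 0.00504 for Mypn, 0.00517 for Palld, 0.00445 for Capza1, 0.0110 for Capzb and 0.0311 for Capza2. After cyclic loess they were −0.19 for Mypn, −0.12 for Palld, −0.06 for Capza1, −0.11 for Capzb and −0.14 for Capza2, and the unadjusted p in limma stayed under 0.05 for Mypn (0.0486) and not for Palld (0.105), Capza1 (0.172), Capzb (0.170) or Capza2 (0.193). Capza2 without both arrays numbered 3 was −0.11 (unadjusted p = 0.0821 in limma) and Capzb −0.15 (unadjusted p = 0.0596 in limma).

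Of 17 measured other stretch-responsive genes, 13 lay below 0 with a median of −0.13, 3 were lower at an unadjusted p under 0.05 in limma and 0 higher, none at 0.001. Of these genes 9 were in the brightest 5% of all probe sets. In that range 93.4% of probe sets lay below 0 and 40.1% were lower at an unadjusted p under 0.05 in limma. After cyclic loess the median of the list turned to 0.01. Capn3, the muscle calpain that binds titin, measured 10.24, 10.35 and 10.14 in OVX + E2 and 10.45, 10.62 and 10.59 in OVX, a difference of −0.31 (unadjusted p = 0.00242 in limma). Trim54, a ubiquitin ligase of muscle, measured 11.50, 11.48 and 11.35 in OVX + E2 and 11.70, 11.64 and 11.76 in OVX, a difference of −0.26 (unadjusted p = 0.00231 in limma). Neither overlapped between the groups. Dnajb6, a chaperone of the Z-disc, differed by −0.23 (unadjusted p = 0.00470 in limma). After cyclic loess the differences were −0.16 for Capn3, −0.11 for Trim54 and −0.08 for Dnajb6, and the last lost its call (unadjusted p = 0.246 in limma). Of 4 measured M-band proteins, which crosslink myosin at the sarcomere's centre, 2 lay below 0, and Myom1, myomesin, differed by −0.23 (unadjusted p = 0.00762 in limma), by −0.09 after cyclic loess (unadjusted p = 0.144 in limma), and by −0.19 without both arrays numbered 3 (unadjusted p = 0.0524 in limma).

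**Figure D4:**
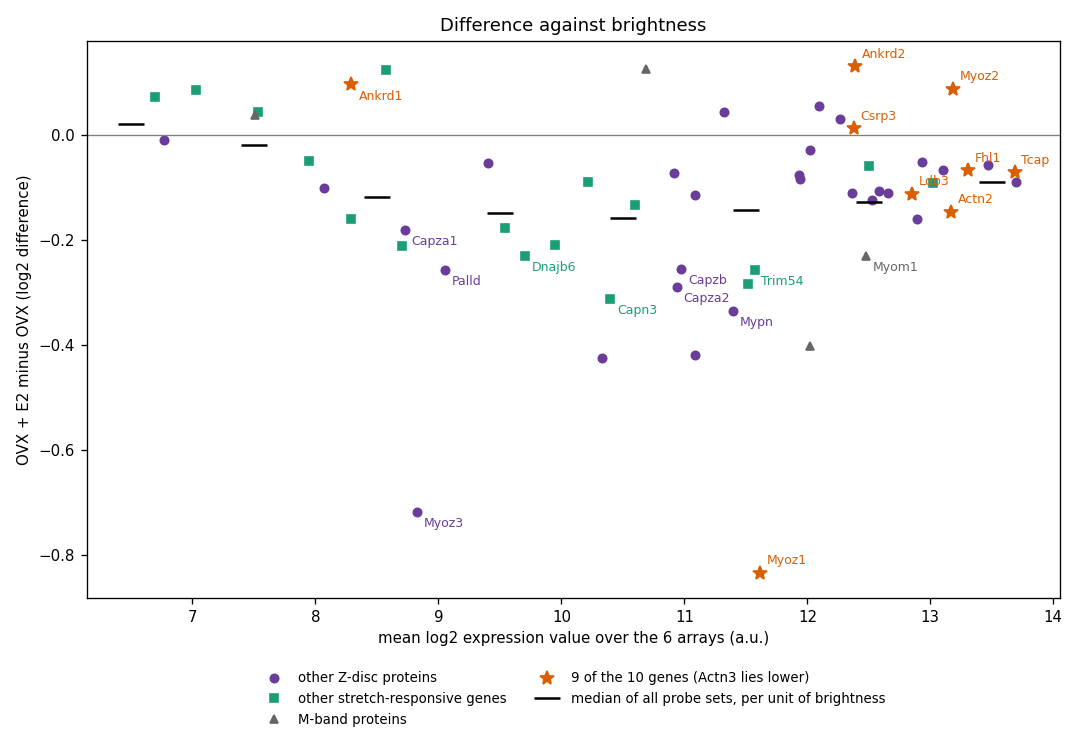
Vertical axis, log2 difference of OVX + E2 from OVX; horizontal axis, average brightness of the probe set on the 6 arrays in log2 units; orange stars mark 9 of the 10 genes, the others being drawn in colour by list, namely other Z-disc proteins (purple), other stretch-responsive genes (green) and M-band proteins (grey), 1 leading probe set a gene, with black bars for the median of all probe sets in each range of brightness. Ankrd2, Myoz2, Csrp3 and Ankrd1 lie above the black bars, Myoz1 and Myoz3 far below them, and labels of the other colours mark an unadjusted p under 0.05.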

How the data were processed

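Expression was profiled on 6 Affymetrix mouse arrays. In R 2.14.2 the authors corrected the background, normalized the arrays by variance stabilization (vsn) and used median polish to condense probes into probe sets. They deposited log2 expression values without a physical unit. That scale compresses differences of dim probe sets. Arrays have no read depth, and their number limits the precision. Scans and detection calls were not analysed here.

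The platform annotation gave 1 symbol to 34958 probe sets, several to 932 and none to 9211. Positions are those of GRCm38.p6. Differences, OVX + E2 minus OVX, were fitted for all 45101 probe sets with limma 3.58.1 (lmFit, eBayes; R 4.3.3), two-sided and without covariates. Calls used the unadjusted p of 0.001 that the study applied to probe sets, a second count used 0.05, and Benjamini-Hochberg adjustment ran over all probe sets. Exact permutation tests used all 20 labelings, with 0.1 as the smallest p. The leading probe set of a gene has its highest mean. The fit was tested on simulated data. Alternatives were other normalizations, filters, variance models, a fast-fibre covariate, a replicate block and leaving out arrays.

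The members and lists were chosen with earlier results of these data known. Genes named beside the members are up to 4 of each context list with the smallest p under 0.05, 6 fibre-type markers and the 3 nearest profiles of each member spanning 1 log2 unit or more. Myoz3, Capza2, Pdlim3, Pdlim7, Myom2, Myom3, Pln, Pdlim1 and Pdlim5 lie outside this rule and were picked once their values were known.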

Additional observations from a re-analysis of the deposited data

How the results depend on the processing

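The 15 member differences kept their direction under all but 20 of 143 settings other than leaving out 1 array and reached an unadjusted p of 0.001 in limma under 0. Of these settings the intensity trend, the filter to probe sets brighter than the median and the replicate block leave every difference unchanged by construction. They could not have turned a direction. After cyclic loess the differences turned to 0.066 for the bright Fhl1 probe set, 0.058 for Tcap, and 0.024, 0.12 and 0.088 for the Ldb3 probe sets, and after quantile normalization to 0.026 for Fhl1, 0.028 for Tcap, and 0.022, 0.16 and 0.12 for Ldb3. With the fast-fibre covariate they turned to 0.16 for Actn3, 0.068 for the dim Fhl1 probe set, −0.17 for Ankrd2 and −0.24 for Csrp3. Without both arrays numbered 3 they turned to −0.16 for Ankrd2, −0.22 for Csrp3, −0.044 for Myoz2 and 0.0010 for the dim Myoz1 probe set. Csrp3 was −0.13 with array weights and −0.0037 after median centring.

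Members lower at an unadjusted p under 0.05 in limma numbered 1, against 0 after loess, 0 after quantile normalization, 0 among probe sets brighter than the median, 2 after median centring and 4 without both arrays numbered 3 (Actn2, Ankrd2 and a pair of Ldb3 probe sets, against 7.54% of all probe sets of any brightness). The share of all probe sets at this p was not counted for median centring or for the filter to brighter probe sets. Without both arrays numbered 3 the share among bright probe sets was not counted, so the 4 members have no background of like brightness. Members higher numbered 0, against 1 after loess and 1 after quantile normalization (Ankrd1). Other Z-disc proteins lower numbered 6, against 2 after loess and 1 after quantile normalization, which gave 3 higher against 0. Stretch-responsive genes lower numbered 3, against 1 after quantile normalization, and M-band proteins lower 1, against 0 after loess, 0 after quantile normalization and 0 with the covariate. Over all probe sets 96 passed 0.001, against 31 after loess, 31 after quantile normalization, 6 with the covariate, 39 with an intensity trend, 164 after median centring, 30 among brighter probe sets and 37 without both arrays numbered 3. With the replicate number as a block 21 passed, and the differences are the same by construction. The 1 member lower was then Actn2 (unadjusted p = 0.0238 in limma) in place of Ldb3 (0.0833). Under the intensity trend it was Myoz1 (0.0421) in place of Ldb3 (0.0857). Deviations of same-numbered arrays correlated at −0.13, −0.20 and −0.34. These values cannot decide whether same-numbered arrays shared a batch or a pairing, and the labels do not say what the number stands for. The causes were not tested.

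Leaving out 1 array gave 19 to 76 probe sets at 0.001, the lowest when OVX + E2 replicate 3 was dropped, 49 when either other OVX + E2 array was, and 62 when OVX replicate 2 was. It gave 0 to 3 members lower (3 without OVX + E2 replicate 1, 2 without OVX replicate 3, 0 without OVX replicate 2), 4 to 11 Z-disc proteins lower, 3 to 6 stretch-responsive genes lower and 0 to 1 higher, and 1 to 2 M-band proteins lower. These counts are at an unadjusted p under 0.05 in limma. The share of all probe sets at that p was not counted for these fits, so the counts have no background. The sign turned for Ankrd2 (−0.040 to 0.22), Csrp3 (−0.15 to 0.16), Myoz2 (−0.036 to 0.16), the dimmer Ankrd1 probe set (−0.0055 to 0.20) and the dimmer Ldb3 probe sets (−0.11 to 0.047 and −0.12 to 0.013). The precision is limited by 3 arrays a group.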

Other observations

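Between OVX + E2 replicate 3 and OVX replicate 3, 15 of the 28 other Z-disc genes were lower, 3 of them by 1 or more log2 units, and 0 were higher by 0.3 or more. Pdlim3, a PDZ-LIM protein of the Z-disc that binds alpha-actinin, measured 11.07, 10.92 and 10.63 in OVX + E2 and 11.09, 10.95 and 11.84 in OVX, and differed by −1.21 between these arrays and by −0.02 without them. Pdlim7, another PDZ-LIM protein, measured 10.28, 10.22 and 9.85 in OVX + E2 and 10.31, 10.32 and 10.99 in OVX, and differed by −1.14 between these arrays and by −0.06 without them. In both the arrays numbered 3 lay at the ends. Other PDZ-LIM genes went the other way between these arrays, Pdlim5 by 0.29 and Pdlim1 by 0.12.

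The myomesins of the M-band went opposite ways on the same arrays. Myom2 measured 12.26, 11.52 and 11.68 in OVX + E2 and 12.01, 12.04 and 12.62 in OVX, and Myom3 measured 10.72, 10.51 and 11.02 in OVX + E2 and 10.81, 10.88 and 10.19 in OVX. Over all arrays the differences were −0.40 for Myom2 and 0.13 for Myom3, with unadjusted p of 0.119 and 0.553 in limma. When both arrays numbered 3 were left out they were −0.13 for Myom2 and −0.23 for Myom3 (unadjusted p = 0.556 and 0.0264 in limma), so the opposite directions rested on those arrays.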
